A study of Homo sapiens with 19 samples.

Results

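The genes described here are the HOX genes of the A, B, C and D clusters, 38 genes among the 33382 that the deposited tables list, chosen by gene symbol. The HOXA and HOXB sets hold 10 genes each and the HOXC and HOXD sets 9 each. All cells derived from H1, an established human embryonic stem cell (hESC) line. WT H1 and the knockout lines SUZ12-/- H1, EED-/- H1, EZH2-/-/EZH1-/- H1 (the double knockout), EZH2-/- H1 and EZH1-/- H1 had 2 RNA-seq samples each. In each knockout, Cas9 and a targeting vector with a drug cassette had removed the domain critical for the protein. A further line, H1-EED-/-/EED-OE, lacks endogenous EED and carries an EED transgene that doxycycline (DOX) switches on. It gave 1 sample kept on DOX and 6 taken singly on days 8, 12, 16, 20, 24 and 28 of DOX withdrawal. The labels give the 2 samples of a line different names but do not say whether they are separate cultures, so p-values measure only the spread between these samples.

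HOX genes encode homeodomain transcription factors that give cells their identity along the head-to-tail axis. Within a cluster the genes stand in a row and are transcribed in the same direction, and genes at the same place in different clusters are paralogs with the same number. In embryos, low-numbered genes at the 3′ end come on early and mark the hindbrain, while high-numbered genes at the 5′ end come on late and mark the trunk, limb buds and tail. Polycomb repressive complex 2 (PRC2), made of EED, SUZ12 and EZH1 or EZH2, deposits H3K27me3, a histone mark that covers silent HOX clusters. By the study's account of H3K27me3, the double knockout, SUZ12-/- H1 and EED-/- H1 are named PRC2-null below, and the single EZH knockouts and WT H1 are named PRC2-retaining. Paralog groups are taken in 3 blocks, 1 to 4 (11 genes), 5 to 8 (11 genes) and 9 to 13 (16 genes).

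On GRCh38, by GENCODE release 44, the HOXA set spans 99.7 kb of chromosome 7 (positions 27100354 to 27200091, minus strand) and the HOXB set 200.2 kb of chromosome 17 (48528526 to 48728750, minus strand). The HOXC set covers 117.2 kb of chromosome 12 (53938831 to 54056030, plus strand) and the HOXD set 98.2 kb of chromosome 2 (176092721 to 176190907, plus strand). RefSeq promoter windows, from 250 bases before to 50 bases after a start site on GRCh38.p14, were at hand for 20 of the 38 genes. They made 26 different windows, of which HOXA3 alone had 7, and HOXC4 and HOXC5 were listed with the same one. HOXB1 was the only HOXB gene among the 20, and HOXC4 and HOXC5 were the only HOXC genes. The shares below thus mostly describe HOXA and HOXD. A ratio of observed to expected CpG of at least 0.6, a usual mark of CpG islands, was found in 21 of the 26 windows (80.8%), against 48.7% of 34941 windows of all genes. CpG-rich promoters are the kind at which PRC2 is known to gather. The median ratio was 0.85 in HOX windows and 0.58 in all. The letters TTTATNG, bound by CDX factors, stood on either strand in 6 HOX windows (23.1%), against 9.7% of all windows. AGATAA, known from GATA factors, stood in 7.7% of HOX windows against 10.4% of all. TGATTNAT, of a TALE partner with HOX, stood in 7.7% against 2.8%, and the TATA box letters TATAAA stood in 19.2% against 11.6%. Windows of 1 gene are not independent, and such matches are letters in a window, not sites shown to be bound.

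The 250 bases before the start sites of 4 genes are printed because these genes stand for different behaviours in the results. After DOX withdrawal HOXB1 was above 0 from day 8 to day 20 and listed at 0 later, HOXC4 was above 1 TPM from day 8 on, and HOXA9 and HOXD11 reached higher levels. Each sequence is on the strand of its gene, and capitals mark the CpG dinucleotides.
HOXB1, chr17:48531012-48531261, minus strand: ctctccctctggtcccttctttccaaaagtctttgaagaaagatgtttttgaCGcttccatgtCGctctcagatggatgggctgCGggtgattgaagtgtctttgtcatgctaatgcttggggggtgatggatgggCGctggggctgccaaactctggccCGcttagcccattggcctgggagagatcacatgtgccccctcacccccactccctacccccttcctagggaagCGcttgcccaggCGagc
HOXC4, chr12:54016638-54016887, plus strand: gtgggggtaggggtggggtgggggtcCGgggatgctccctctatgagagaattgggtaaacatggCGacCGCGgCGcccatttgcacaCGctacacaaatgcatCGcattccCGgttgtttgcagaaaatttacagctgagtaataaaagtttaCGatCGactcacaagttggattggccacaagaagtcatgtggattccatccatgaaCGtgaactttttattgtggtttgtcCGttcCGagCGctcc
HOXA9, chr7:27165538-27165787, minus strand: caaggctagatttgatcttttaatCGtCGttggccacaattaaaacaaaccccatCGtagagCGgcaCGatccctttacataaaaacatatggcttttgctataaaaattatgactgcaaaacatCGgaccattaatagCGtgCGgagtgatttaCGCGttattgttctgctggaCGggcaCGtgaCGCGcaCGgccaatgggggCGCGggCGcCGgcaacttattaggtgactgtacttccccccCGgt
HOXD11, chr2:176107030-176107279, plus strand: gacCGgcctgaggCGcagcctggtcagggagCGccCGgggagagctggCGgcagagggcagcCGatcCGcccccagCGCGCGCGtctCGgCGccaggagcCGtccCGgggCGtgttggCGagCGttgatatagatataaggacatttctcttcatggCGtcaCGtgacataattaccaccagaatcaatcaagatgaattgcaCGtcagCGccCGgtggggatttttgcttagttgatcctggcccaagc
The HOXB1 sequence holds 7 CpGs (observed to expected ratio 0.34), the HOXC4 sequence 14 (0.89), the HOXA9 sequence 20 (1.34) and the HOXD11 sequence 23 (0.98). RefSeq lists the HOXC4 window for HOXC5 too, while GENCODE starts HOXC5 at 54033050, downstream of the HOXC4 start at 54016931. The RefSeq starts of HOXA9 and HOXD11 lie inside the genes as GENCODE bounds them, so other starts of these genes are not shown.

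All values are TPM, estimates of transcript abundance scaled by transcript length and to the same total in each sample, so read depth is unknown. A TPM of 0 can be a failed estimate or a silent gene. Of 3003 genes with a median of at least 50 TPM over the 19 samples, 5 were listed at 0 in some sample. Whether these were failed estimates was not examined. Exons of 24 of the 38 genes overlap an exon of another listed gene, 15 on the same strand and 19 on the opposite strand. The library kit does not mark strand, so a HOX gene and its antisense partner cannot be told apart where they overlap, and the shares of overlapping genes on 1 strand are estimates. No targeted gene was called lower in its own knockout line, but gene-level TPM counts what is left of the transcript and so does not check the labels. EED was at 14.3 and 22.4 TPM in EED-/- H1 and at 17.3 and 22.0 TPM in WT H1, and SUZ12 was at 22.9 and 20.8 TPM in SUZ12-/- H1 against 25.2 and 27.9 TPM. EZH2, at 54.6 and 58.9 TPM in WT H1, was at 46.9 and 22.0 TPM in EZH2-/- H1 and 31.3 and 20.0 TPM in the double knockout, and was at most 34.8 TPM in the knockout lines with EZH2 intact. EZH1 was at 13.7 and 14.3 TPM in WT H1, 12.5 and 17.1 TPM in EZH1-/- H1 and 9.37 and 6.78 TPM in the double knockout. In the inducible line EED was at 108.5 TPM with DOX and at 12.6 to 31.6 TPM after withdrawal. The title of the sample with DOX carries a day 28 mark that its other labels lack. Markers of undifferentiated hESCs (POU5F1, NANOG, SOX2, LIN28A, DNMT3B and TDGF1) summed to 5262 to 6524 TPM in the retaining lines and to 129 to 439 TPM in the PRC2-null lines, where 6 of 6 were lower in each line. The samples labelled as hESCs thus lacked much of their defining expression in the PRC2-null lines, and the 6 endoderm and yolk sac markers summed there to 1413 to 20140 TPM, against 5.03 to 15.02 TPM. In bulk samples, fewer cells that express a gene and less RNA of it per cell cannot be told apart.

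HOX transcripts were nearly absent from the retaining lines. Of 228 values (38 genes in 6 samples), 202 were listed at 0 and 1 exceeded 0.5 TPM, which was HOXB1 at 0.76 TPM in a sample of EZH2-/- H1. HOXB1 patterns the hindbrain. The 38 genes together summed to 0.06 to 1.74 TPM in these 6 samples. In EED-/- H1 they summed to 675 and 494 TPM, in SUZ12-/- H1 to 355 and 375 TPM, and in EZH2-/-/EZH1-/- H1 to 538 and 585 TPM. The groups did not overlap in this sum.

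**Figure D1:**
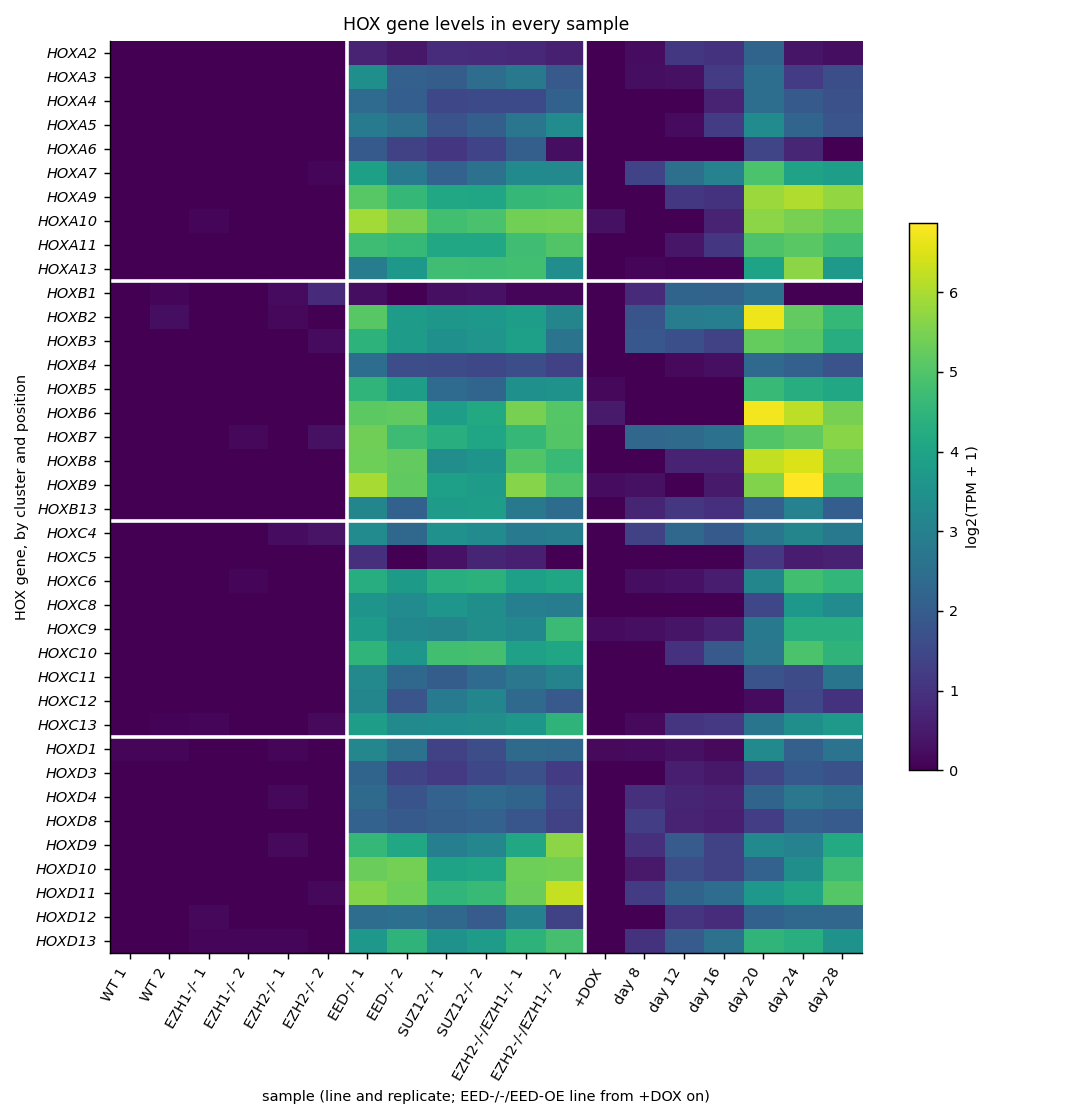
Level of each HOX gene (rows, by cluster and position) in each of the 19 samples (columns) as log2(TPM + 1), shown by colour. White lines part the clusters and the 3 sets of samples; the 6 retaining samples at the left are dark throughout, with 202 of 228 values at 0, and the inducible line turns bright from day 20.

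Each line was compared with WT H1 by limma on log2(TPM + 1), in 1 fit of all 12 samples with 19100 genes tested. A gene was called where its p, adjusted by Benjamini-Hochberg, did not exceed 0.01 and its fold was at least 3 on that scale, which understates the change of low genes. HOXA2, HOXB1 and HOXC5 missed the filter of 1 TPM in at least 2 samples and were not tested. The other 35 passed it through the PRC2-null samples alone, so their passing already favours a difference. In EED-/- H1, 34 of the 38 genes were called higher, against 16.2% of all genes tested. In SUZ12-/- H1 the count was 30, against 14.5%, and in EZH2-/-/EZH1-/- H1 it was 31, against 11.6%. All 35 tested genes had a difference above 0 in each of these lines. The median difference of the 35 tested genes was 3.51 in EED-/- H1, while SUZ12-/- H1 had 3.40 and the double knockout 3.35, that of all genes was 0.36, 0.22 and 0.19. Every PRC2-null sample stood above every retaining sample for 36 of 38 genes, against 24.2% of all genes tested. HOXB1 and HOXC5 were the exceptions.

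The genes that missed a call were mostly low-numbered. HOXA6, at 0.19 to 3.2 TPM, was not called in any line, and its largest difference was 1.64 (SE 0.469, adjusted p = 0.0133) in EED-/- H1. HOXB4 and HOXD3 passed the adjusted p but not the fold in SUZ12-/- H1 (differences of 1.53 and 1.33) and in EZH2-/-/EZH1-/- H1 (1.504 and 1.45). HOXA4 (1.52) and HOXD1 (1.41) fell short of the fold in SUZ12-/- H1, as did HOXD8 (1.58) in EZH2-/-/EZH1-/- H1. In paralog groups 1 to 4, 9 of 11 genes were called in EED-/- H1, with 5 for SUZ12-/- H1 and 7 for the double knockout. Groups 5 to 8 had 9, 9 and 8 of 11. For groups 9 to 13 the count was 16 of 16 in each line. By cluster, the counts in the same order of lines were 8, 7 and 8 of 10 for HOXA, 9, 8 and 8 of 10 for HOXB, 8, 8 and 8 of 9 for HOXC, and 9, 7 and 7 of 9 for HOXD.

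EZH1-/- H1 and EZH2-/- H1 cells, which keep 1 of the EZH enzymes, had no called HOX gene. By limma, 0 of 35 had an unadjusted p under 0.05 in either line. With nearly all values at 0 in these lines and in WT H1, the SE (0.232 to 0.469) came largely from the PRC2-null samples. The test therefore could hardly find small rises and does not show that they were absent. HOXB1, the gene above 0.5 TPM in EZH2-/- H1, was not among the genes tested. The background in EZH1-/- H1 was 0.0576% of all genes higher and 0.0419% lower, and in EZH2-/- H1 it was 0% higher and 0% lower. Differences of log2(TPM + 1) ran from -0.13 to 0.09 in EZH1-/- H1 and from -0.06 to 0.30 in EZH2-/- H1. EZH2-/- H1 replicate 2 had the highest HOX sum of the retaining samples, 1.74 TPM, of which HOXB1 gave 0.76, HOXC4 0.28 and HOXB7 0.25 TPM.

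Levels within the PRC2-null lines differed widely along the clusters. At least 10 TPM in all 6 PRC2-null samples was reached by 11 genes, of which 8 belong to groups 9 to 13, 3 to groups 5 to 8 and 0 to groups 1 to 4. Groups 9 to 13 made up 56.9 to 70.1% of the summed HOX TPM in these samples, groups 5 to 8 made up 24.0 to 29.8%, and groups 1 to 4 made up 5.9 to 14.5%. Across the genes of a cluster, the Spearman correlation of mean TPM with paralog number was 0.73 to 0.85 for HOXA in the 3 lines (10 genes), 0.52 to 0.56 for HOXB (10 genes), 0.52 to 0.70 for HOXD (9 genes) and -0.13 to 0.35 for HOXC (9 genes). These are descriptions across neighbouring genes of the same libraries. The HOXC cluster showed no such rise with position.

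**Figure D2:**
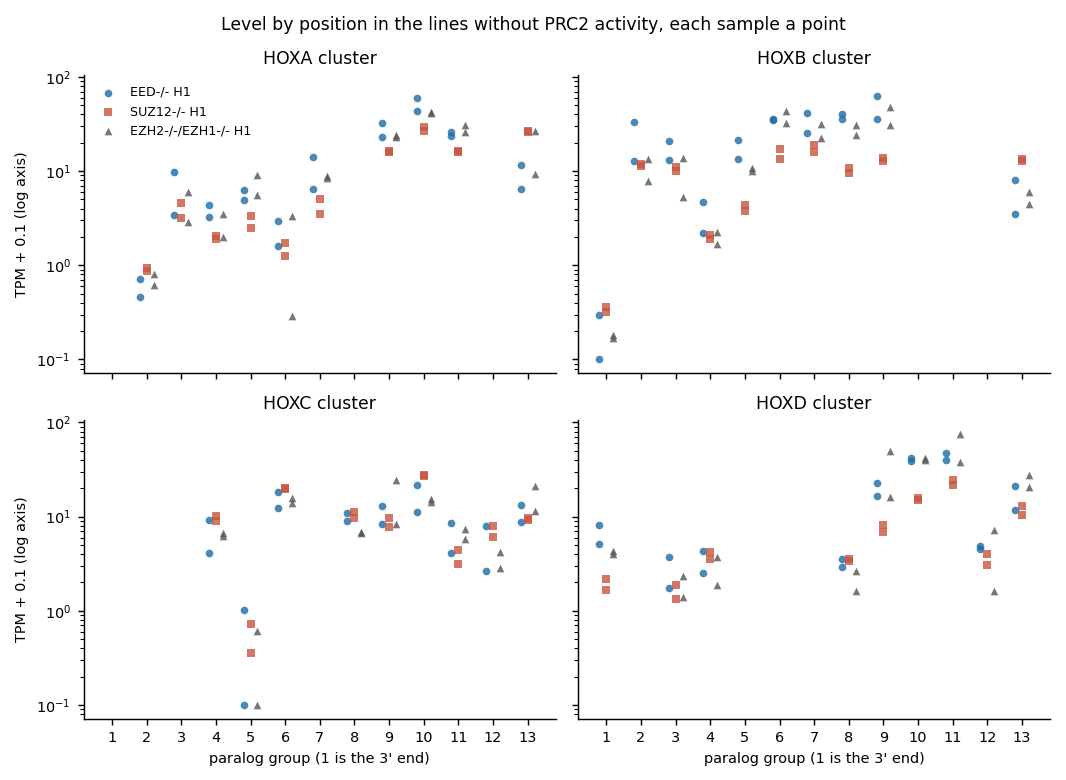
TPM + 0.1 (log axis) against paralog group in the 4 clusters, each point 1 sample of a PRC2-null line. HOXA levels climb from HOXA2, at 0.36 to 0.83 TPM, to HOXA10, at 26.6 to 59.6 TPM, while HOXC levels do not climb with position and HOXC5 lies near 0.

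In the HOXA cluster, HOXA10 had the highest mean over the PRC2-null samples. HOXA10, which patterns the lumbar spine and the reproductive tract, was at 59.6 and 43.2 TPM in EED-/- H1, 26.6 and 29.0 TPM in SUZ12-/- H1, and 41.8 and 42.6 TPM in EZH2-/-/EZH1-/- H1. Both SUZ12-/- H1 samples were the lowest. It was listed at 0 in 5 of the 6 retaining samples and at 0.07 TPM in the other. Its difference from WT H1 was 5.69 (SE 0.250, adjusted p = 1.07e-07) in EED-/- H1 and 4.85 (SE 0.250, adjusted p = 3.6e-07) in SUZ12-/- H1. HOXA11, required for the forearm and kidney, was at 25.7 and 23.5 TPM in EED-/- H1, 16.5 and 16.0 TPM in SUZ12-/- H1, and 26.1 and 30.9 TPM in EZH2-/-/EZH1-/- H1. HOXA9, known from blood progenitors and leukaemia, was at 32.7 and 22.7 TPM in EED-/- H1, 16.2 and 15.8 TPM in SUZ12-/- H1, and 22.8 and 24.1 TPM in EZH2-/-/EZH1-/- H1. HOXA9 and HOXA11 were listed at 0 in all 6 retaining samples. Exons of HOXA9 and HOXA10 overlap HOXA10-AS, and those of HOXA11 overlap HOXA11-AS. At the other end of the cluster HOXA2, a hindbrain and pharyngeal arch gene, stayed at 0.36 to 0.83 TPM.

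In the HOXB cluster, HOXB9, a thoracic patterning gene, was at 62.1 and 35.3 TPM in EED-/- H1, 13.6 and 12.6 TPM in SUZ12-/- H1, and 48.3 and 30.7 TPM in EZH2-/-/EZH1-/- H1. The SUZ12-/- H1 samples lay apart from the other 4. HOXB6 was at 34.5 and 35.7 TPM in EED-/- H1, 13.4 and 16.9 TPM in SUZ12-/- H1, and 43.0 and 32.5 TPM in EZH2-/-/EZH1-/- H1. HOXB7 was at 40.9 and 25.3 TPM, 18.7 and 15.8 TPM, and 22.6 and 31.6 TPM in the same lines. Again the SUZ12-/- H1 samples were lowest for each gene. HOXB9 and HOXB6 were listed at 0 in all retaining samples, and HOXB7 was at 0 to 0.25 TPM there. HOXB1 was at 0 to 0.26 TPM in the PRC2-null samples and at 0 to 0.76 TPM in the retaining ones, and so did not part the groups.

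The HOXC cluster was led by HOXC10, a lumbar spinal cord gene, at 21.7 and 11.2 TPM in EED-/- H1, 26.6 and 27.5 TPM in SUZ12-/- H1, and 14.2 and 15.5 TPM in EZH2-/-/EZH1-/- H1. Here SUZ12-/- H1 was the highest line. HOXC6, a marker of forelimb-level spinal cord, was at 18.3 and 12.3 TPM in EED-/- H1, 19.3 and 20.2 TPM in SUZ12-/- H1, and 13.8 and 15.6 TPM in EZH2-/-/EZH1-/- H1. Exons of HOXC6 overlap those of HOXC4 and HOXC9, so its share is uncertain. HOXC5 reached at most 0.93 TPM and was listed at 0 in EED-/- H1 replicate 2 and EZH2-/-/EZH1-/- H1 replicate 2, while HOXC4 was at 4.01 to 10.2 TPM.

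In the HOXD cluster, HOXD11, which acts with HOXA11 in the forearm, was at 47.7 and 40.0 TPM in EED-/- H1, 21.8 and 24.3 TPM in SUZ12-/- H1, and 38.1 and 76.1 TPM in EZH2-/-/EZH1-/- H1. The last value was the highest of any HOX gene in the 6 PRC2-null samples. Its difference from WT H1 was 5.78 (SE 0.318, adjusted p = 6.35e-07) in EZH2-/-/EZH1-/- H1. HOXD10, its neighbour with overlapping exons, was at 38.7 and 42.3 TPM in EED-/- H1, 14.9 and 15.8 TPM in SUZ12-/- H1, and 39.7 and 41.5 TPM in EZH2-/-/EZH1-/- H1. HOXD9 was at 22.8 and 16.5 TPM, 6.84 and 8.11 TPM, and 16.2 and 50.1 TPM in these lines, so the replicates of EZH2-/-/EZH1-/- H1 lay further apart than EED-/- H1 from SUZ12-/- H1.

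Paralog group 13, the most posterior genes, was expressed from all 4 clusters in every PRC2-null sample. HOXA13, needed for digits, hindgut and urogenital tract, was at 6.43 and 11.6 TPM in EED-/- H1, 26.4 and 25.8 TPM in SUZ12-/- H1, and 26.8 and 9.23 TPM in EZH2-/-/EZH1-/- H1. HOXB13, a gene of hindgut and prostate, was at 7.86 and 3.37 TPM, 12.9 and 13.2 TPM, and 5.89 and 4.34 TPM in the same lines. SUZ12-/- H1 was highest for HOXB13, without overlap. HOXC13, the gene of hair and nail, was at 13.3 and 8.76 TPM, 9.06 and 9.46 TPM, and 11.5 and 21.2 TPM. HOXD13, a digit gene, was at 11.8 and 21.3 TPM, 10.3 and 12.7 TPM, and 20.6 and 27.5 TPM. For HOXC13 and HOXD13 the ranges of EED-/- H1 and SUZ12-/- H1 overlapped.

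Whether the PRC2-null lines differed from one another was tested in the same fit. HOXB5, HOXB8 and HOXB9 were called lower in SUZ12-/- H1 than in EED-/- H1, 3 of 38 genes against 2.58% of all genes tested, and 0 were called higher, against 3.54%. With 18 of 35 tested genes at an unadjusted p under 0.05, the differences ran from -1.84 to 1.49, with a median of -0.56 beside -0.14 for all genes. HOXB5 was at 21.5 and 13.2 TPM in EED-/- H1, 4.32 and 3.71 TPM in SUZ12-/- H1 and 9.83 and 10.6 TPM in EZH2-/-/EZH1-/- H1. Its difference was -1.84 (SE 0.274, adjusted p = 0.00103). HOXB8 was at 40.1 and 36.0 TPM in EED-/- H1, 9.42 and 10.7 TPM in SUZ12-/- H1 and 31.1 and 24.3 TPM in EZH2-/-/EZH1-/- H1, a difference of -1.82 (SE 0.247, adjusted p = 0.000577) between SUZ12-/- H1 and EED-/- H1. For HOXB9 it was -1.76 (SE 0.319, adjusted p = 0.00315). HOXB5 shares exon bases with the antisense HOXB-AS3, and HOXB8 and HOXB9 with no listed gene.

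These 3 calls depended on the settings more than their sizes did. With a pseudocount of 0.1 there were 0 calls, with differences of -2.05 for HOXB5 (adjusted p = 0.0153), -1.91 for HOXB8 (adjusted p = 0.0102) and -1.83 for HOXB9 (adjusted p = 0.0185). Without SUZ12-/- H1 replicate 1 there were also 0 calls, at differences of -1.93, -1.74 and -1.82, and without its replicate 2 HOXB8 alone was called. Without EED-/- H1 replicate 1 HOXB8 (-1.75) stayed called, while HOXB5 (-1.51) and HOXB9 (-1.37) fell short of the fold. The signs did not change in any of these fits. After scaling by median ratios, which moved the median of all genes from -0.14 to 0.03, HOXB9 (-1.55) fell short of the fold, and the share of all called genes that were higher in SUZ12-/- H1 moved from 57.8 to 70.0%.

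Other genes stood on the same side without a call. HOXB6 (-1.17, adjusted p = 0.00904), HOXD1 (-1.38, adjusted p = 0.00413) and HOXD10 (-1.34, adjusted p = 0.00242) passed the adjusted p but not the fold, and HOXB7 (-0.87, adjusted p = 0.0695) passed neither. HOXA13 (1.49, adjusted p = 0.0312) and HOXB13 (1.17, adjusted p = 0.0291) had the largest differences upward and passed neither threshold. By cluster, 8 of 9 tested HOXA genes, 8 of 9 HOXB genes and 7 of 9 HOXD genes had a difference below 0, against 3 of 8 HOXC genes. The HOXC share of summed HOX TPM was 26.3 and 26.2% in SUZ12-/- H1 and 12.1 to 17.1% in the other 4 PRC2-null samples, and the HOXB share was 27.0 and 26.1% against 25.4 to 39.3%. The HOXC share of SUZ12-/- H1 thus lay above every other PRC2-null sample, while the HOXB share overlapped. Cell type markers moved with this comparison. The 6 endoderm and yolk sac markers summed to 19340 and 20140 TPM in SUZ12-/- H1 and to 1413 and 3708 TPM in EED-/- H1, with AFP and APOA1 called higher. AFP, the fetal liver and yolk sac protein, made up 13208 and 13695 TPM of the sum in SUZ12-/- H1, while SOX17 (-1.32), FOXA2 (-0.45) and GATA4 (-0.54) of the same list were below EED-/- H1 without a call. The 6 smooth muscle and mesenchyme markers summed to 3547 and 3552 TPM against 9042 and 6406 TPM, with 2 of 6 called lower. TWIST1 (1.62) and PDGFRB (0.79) of that list were above EED-/- H1 without a call. Of the endothelium and blood markers (152 and 144 TPM against 504 and 331 TPM), 2 of 6 were also called lower, while TEK (0.65) was above without a call. The 6 neural markers summed to 63.5 and 58.3 TPM against 364 and 283 TPM, with PAX6 (-3.40) and NES (-2.28) called lower and NEUROD1 (2.85) higher, and 3 not tested. The 6 hESC markers summed to 226 and 138 TPM against 129 and 249 TPM, with POU5F1 (3.63) and NANOG (1.82) called higher. SOX2 (-0.90), LIN28A (-1.11) and DNMT3B (-0.42) of that list were below EED-/- H1 without a call. Of the 6 trophoblast markers HAND1 (4.60) was called higher and KRT7 (-2.57) lower. The part of these markers in the HOX differences was not tested.

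**Figure D3:**
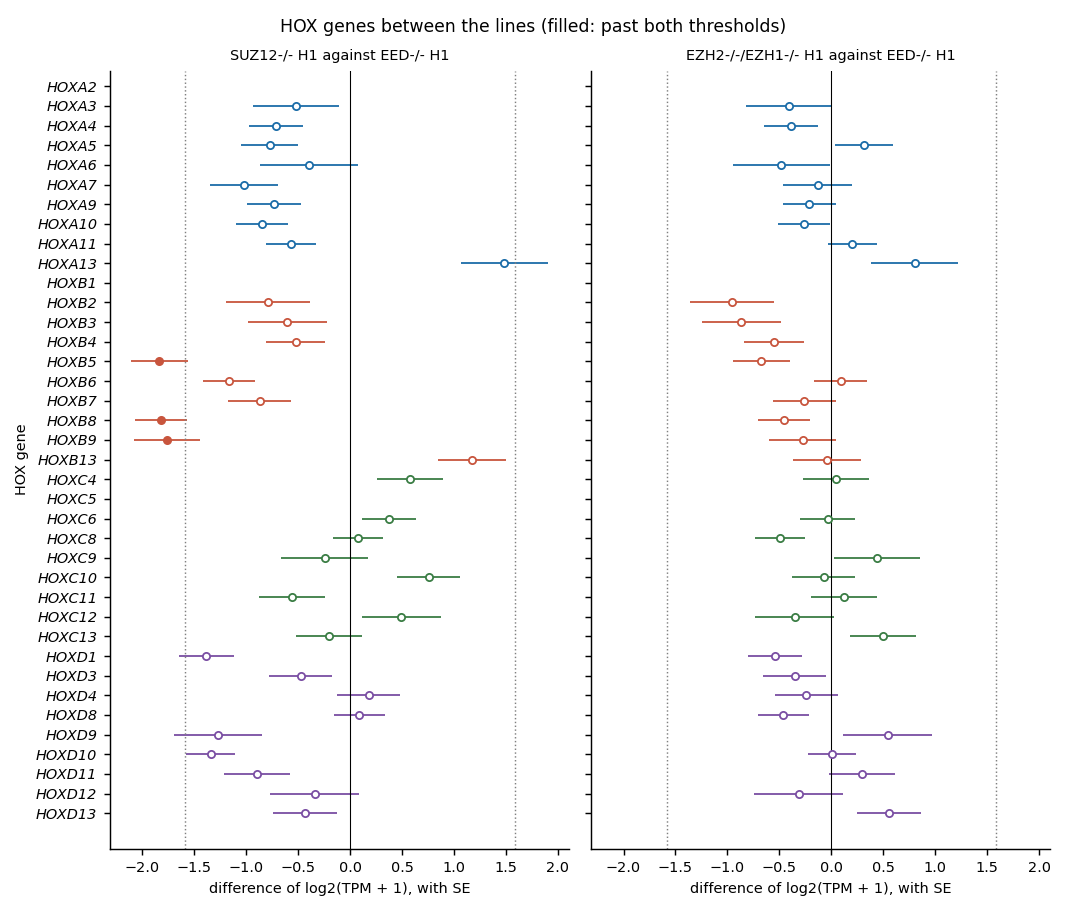
Difference of log2(TPM + 1) with its SE for each tested HOX gene, SUZ12-/- H1 against EED-/- H1 (left) and EZH2-/-/EZH1-/- H1 against EED-/- H1 (right), coloured by cluster. Dotted lines mark a fold of 3 and filled points passed both thresholds, which HOXB5, HOXB8 and HOXB9 did on the left and no gene on the right.

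EZH2-/-/EZH1-/- H1 and EED-/- H1 had no called difference in HOX genes. By limma 3 of 35 genes had an unadjusted p under 0.05 and the lowest adjusted p was 0.214. The background was 0.0314% of genes higher and 0.0576% lower. Differences ran from -0.96 for HOXB2 (SE 0.401) to 0.80 for HOXA13 (SE 0.422). With such SEs the lack of a call neither shows equal levels of single genes nor bounds their fold at 3. Between SUZ12-/- H1 and EZH2-/-/EZH1-/- H1 there were also 0 calls, with 18 of 35 genes at an unadjusted p under 0.05, against a background of 3.32% higher and 1.14% lower. HOXB8 (-1.37, adjusted p = 0.00417), HOXB6 (-1.26, adjusted p = 0.00787) and HOXD10 (-1.35, adjusted p = 0.00314) passed the adjusted p alone. HOXD9 had the largest difference, -1.81 (SE 0.426, adjusted p = 0.0168). The comparisons between the PRC2-null lines share their samples.

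DOX withdrawal let the appearance of HOX transcripts be followed in 1 line. With DOX, the 38 genes summed to 1.23 TPM and 0 of them reached 1 TPM. The sum was 20.7 TPM at day 8, 47.4 TPM at day 12 and 55.9 TPM at day 16, then 735 TPM at day 20, 806 TPM at day 24 and 575 TPM at day 28. Genes at or above 1 TPM numbered 8, 15, 17, 37, 34 and 34 on these days. From day 16 to day 20 all 38 genes were higher, 7 of them from a listed 0 and 12 by more than 10-fold from a value above 0. The share of all genes that rose over this interval was not counted, so these counts do not show a rise particular to HOX genes. The same interval saw the hESC markers go from 5564 to 2498 TPM, and they were at 401 TPM at day 24. The 6 trophoblast markers, which include CDX2, went from 14.3 to 595 TPM between days 16 and 20. HAND1 made up most of this, from 1.07 to 470 TPM, while KRT7 went from 8.04 to 6.44 TPM and CGA from 0 to 0.35 TPM. The endoderm and yolk sac markers went from 81.5 to 377 TPM, and the smooth muscle and mesenchyme markers from 161 to 579 TPM. The part of these markers in the HOX rise was not tested, and with 1 sample a day no single step was tested.

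**Figure D4:**
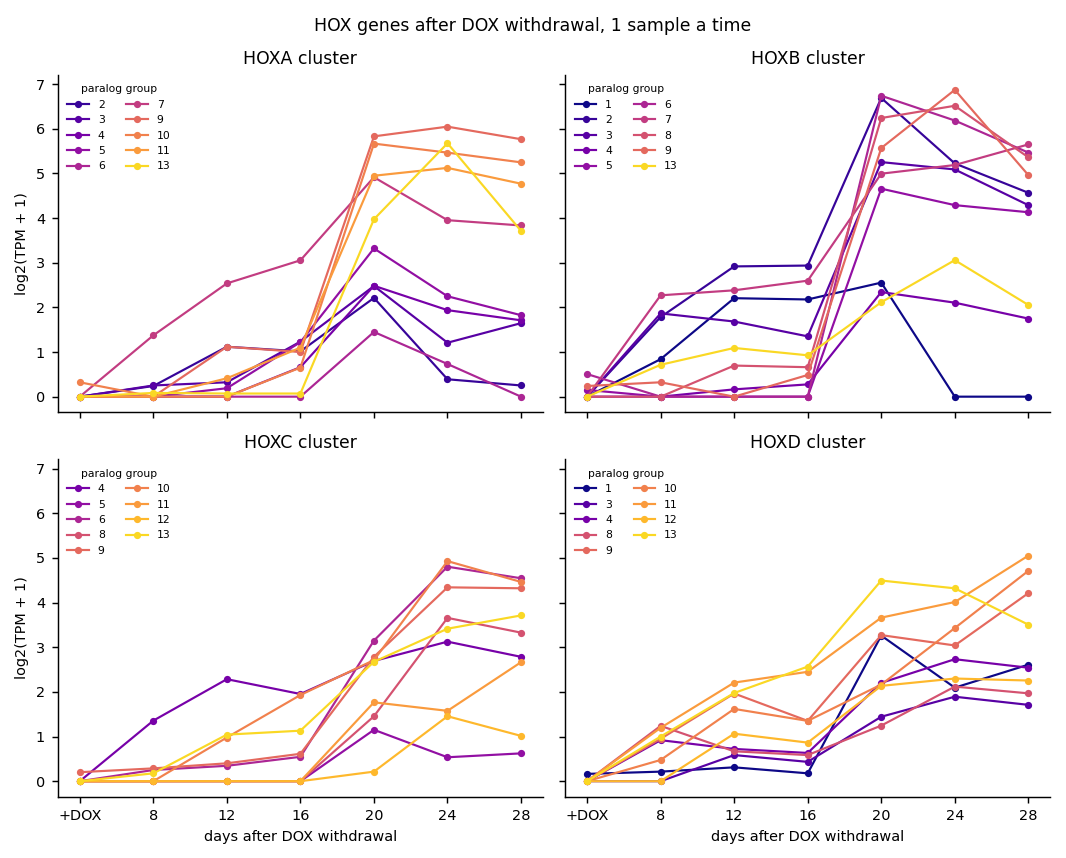
log2(TPM + 1) of each HOX gene in the inducible line with DOX and by days after withdrawal (categories, 1 sample each), coloured by paralog group. HOXA7, HOXB2, HOXB7 and HOXC4 rise by day 8, and HOXB5 and HOXB6, at 0.11 and 0.42 TPM with DOX, are at 0 on days 8 to 16 and at 24.2 and 106 TPM on day 20.

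Onset was taken as the day from which a gene was at or above 1 TPM in that and every later sample. It fell on day 8 for 7 genes, on day 12 for 4, on day 16 for 4, on day 20 for 18 and on day 24 for 1, and 4 genes had none by this rule. The 7 early genes were HOXA7, HOXB2, HOXB3, HOXB7, HOXC4, HOXD11 and HOXD13, from both ends of the clusters. With a threshold of 0.5 TPM, 23 genes rather than 15 had an onset by day 16, and with 2 TPM 7 did. Across the 34 genes with an onset its Spearman correlation with paralog number was 0.06. Within clusters it was 0.55 for HOXB (9 genes), 0.20 for HOXA (8 genes), 0.22 for HOXC (8 genes) and -0.67 for HOXD (9 genes). In the HOXD cluster, HOXD11 and HOXD13 had their onset on day 8 and HOXD9 and HOXD10 on day 12, while HOXD1, HOXD3, HOXD4, HOXD8 and HOXD12 followed on day 20. This order depended on the rule. HOXD8 was at 1.36 TPM on day 8 and HOXD12 at 1.09 TPM on day 12, but both were below 1 TPM on day 16. HOXD13 was at 1.00 TPM on day 8, just at the threshold. With 0.5 TPM, HOXD4, HOXD8 and HOXD9 also had their onset on day 8. By this rule, onset thus did not run from the 3′ to the 5′ end over the clusters as a whole at this spacing of samples. The rule left out HOXA2 and HOXB1, which first passed 1 TPM on day 12 but fell below it later. It also takes no account of each gene's highest level. On day 16 HOXA2 was at 28.1% of its highest day and HOXA10 at 1.1%, and HOXB1 at 72.3% and HOXB9 at 0.3%. In HOXD the end genes went the other way, with HOXD1 at 1.5% and HOXD13 at 22.9%. Such pairs do not make an order along a cluster. HOXB2 was at 6.5% and HOXB13 at 12.3%, and HOXD3 was at 12.9% and HOXD10 at 6.2%.

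The early genes were followed in each sample. HOXB2, a hindbrain gene, was listed at 0 with DOX and was at 2.44, 6.55, 6.65, 102, 36.3 and 22.7 TPM on days 8, 12, 16, 20, 24 and 28. HOXB7 was listed at 0 and then at 3.82, 4.21, 5.05, 30.8, 35.4 and 49.1 TPM. HOXD11 was listed at 0 and then at 1.29, 3.62, 4.46, 11.7, 15.1 and 32.1 TPM. HOXB2 thus peaked on day 20, and HOXB7 and HOXD11 were still highest on day 28. HOXB1 took a course of its own, 0.79, 3.61, 3.52 and 4.87 TPM up to day 20 and a listed 0 on days 24 and 28. HOXA2 was similar in outline, at 0.18, 1.17, 1.02, 3.63, 0.31 and 0.19 TPM.

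Late genes could be abrupt. HOXB6 was listed at 0 on days 8, 12 and 16 and was at 106, 71.6 and 43.2 TPM on days 20, 24 and 28. Its exons overlap those of HOXB3 on the same strand and of HOXB-AS3 on the opposite strand, so its share is uncertain. HOXB3 was at 2.64, 2.21 and 1.55 TPM on days 8, 12 and 16. HOXB9 was at 0.25, 0, 0.40, 46.4, 116 and 30.1 TPM, its day 24 value the highest of any HOX gene in the 19 samples. HOXB8 was at 0, 0.62, 0.58, 74.5, 90.3 and 40.0 TPM. HOXA10 was at 0, 0, 0.57, 49.8, 43.1 and 37.0 TPM, and HOXA13 at 0.06, 0.05, 0.05, 14.7, 50.02 and 12.1 TPM. HOXC8 was listed at 0 up to day 16 and was at 1.74, 11.6 and 9.03 TPM afterwards. HOXC10, with an earlier onset on day 16, was at 0, 0.97, 2.81, 5.55, 29.4 and 21.0 TPM. Both were thus further from their highest level on day 20 than HOXB8 was.

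Over the 38 genes, unlike onset, the day of the highest level ran with position, though little in HOXD. It was day 20 for 16 genes, day 24 for 16 and day 28 for 6, while of all 17245 genes expressed in this line 11.0% peaked on day 20, 13.3% on day 24 and 33.2% on day 28. Among groups 1 to 4, 8 of 11 genes peaked on day 20, and among groups 9 to 13, 14 of 16 peaked on day 24 or 28. The Spearman correlation of peak day with paralog number was 0.58 over the 38 genes, 0.72 for HOXA, 0.79 for HOXB, 0.69 for HOXC and 0.19 for HOXD. The clusters also parted after day 20. Day 28 was below day 20 for 10 of 10 HOXA genes and 9 of 10 HOXB genes, but above it for 8 of 9 HOXC genes and 7 of 9 HOXD genes. Of all 17245 genes, 10034 were above day 20 on day 28 and 7061 were below it. The median difference of log2(TPM + 1) between days 28 and 20 was -0.80 for HOXA, -0.74 for HOXB, 1.04 for HOXC and 0.34 for HOXD, and 0.175 for all genes. These are single samples and were not tested.

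**Figure D5:**
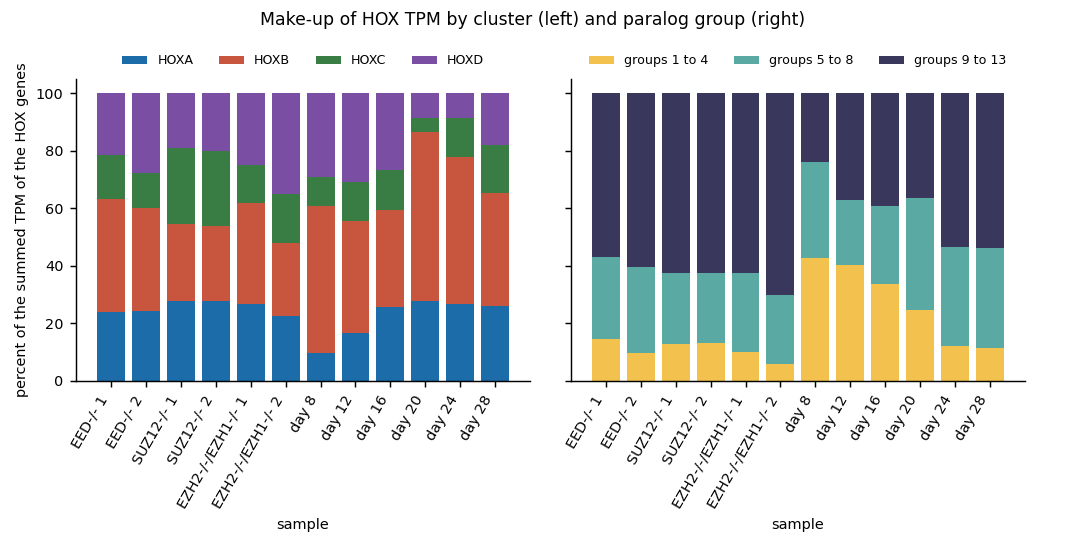
Percent of the summed HOX TPM held by each cluster (left) and by each block of paralog groups (right) in the 6 PRC2-null samples and by day after DOX withdrawal. HOXB held 58.9% on day 20 and 39.3% on day 28, and groups 1 to 4 went from 42.7% on day 8 to 11.5% on day 28.

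The make-up of HOX RNA changed accordingly. Groups 1 to 4 held 42.7% of the summed HOX TPM on day 8, 24.5% on day 20 and 11.5% on day 28, and groups 9 to 13 held 23.7%, 36.4% and 53.8%. HOXB held 58.9% on day 20 and HOXC 4.9%, and on day 28 they held 39.3% and 16.7%. In EED-/- H1, HOXB held 39.3 and 35.8% and HOXC 15.3 and 12.1%, and groups 9 to 13 held 56.9 and 60.6%. Day 28 was a single sample of another line, so no test was made against EED-/- H1.

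A straight line over the 6 days was tested by limma for 17245 genes at an adjusted p of at most 0.05. It takes the scatter of single samples about the line as error. A rise was called for 22 of the 38 HOX genes, against 12.3% of all genes tested, and a fall for 0, while HOXA6 and HOXC5 missed the filter of 1 TPM in at least 2 of the 7 samples. Of the 36 that passed it, 23 did so only through days 20 to 28, so their passing already favours a rise. The median slope was 0.164 log2 units a day, against 0.0068 for all genes. Rises were called for 14 of 16 genes of groups 9 to 13, 6 of 11 of groups 5 to 8 and 2 of 11 of groups 1 to 4. The 2 were HOXD3 and HOXD4. By cluster they were 4 of 10 for HOXA, 5 of 10 for HOXB, 6 of 9 for HOXC and 7 of 9 for HOXD. HOXD11 had the lowest adjusted p (slope 0.185, SE 0.0200, adjusted p = 0.00816) and HOXB6 the steepest slope (0.376, SE 0.0944, adjusted p = 0.035). The count depended on single days. It was 10 without day 8, 7 without day 12, 12 without day 24 and 5 without day 28, and 29 without day 20.

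Genes that act on, with or beside the HOX clusters were taken from lists. Of the 18 long non-coding RNAs of the clusters found in the tables, 17 were tested and 10 were called higher in each PRC2-null line, beside shares of all genes of 16.2, 14.5 and 11.6% for EED-/- H1, SUZ12-/- H1 and the double knockout. HOTAIR, transcribed from the HOXC cluster, was listed at 0 in WT H1 and was at 31.4 and 12.8 TPM in EED-/- H1, 10.4 and 10.7 TPM in SUZ12-/- H1, and 13.2 and 10.6 TPM in EZH2-/-/EZH1-/- H1. HOTAIRM1, from the 3′ end of HOXA, was listed at 0 in WT H1 and was at 11.4 to 29.6 TPM in the PRC2-null samples. After DOX withdrawal HOTAIRM1 was at 2.50 TPM on day 8, and HOTAIR was listed at 0 up to day 16. EVX1, the even-skipped homologue beyond HOXA13, was listed at 0 in WT H1 and was called in each line, with a difference of 3.80 in EED-/- H1 (SE 0.24, adjusted p = 8.29e-07). On day 20 EVX1 was at 62.5 TPM. EVX2, beyond HOXD13, reached 1.21 to 4.37 TPM in the PRC2-null samples and was called in EZH2-/-/EZH1-/- H1 alone.

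Among 6 ParaHox and CDX genes, which include activators of posterior HOX genes, 4 were tested, as GSX1 and GSX2 missed the filter. EED-/- H1 had 2 called higher, SUZ12-/- H1 3 and the double knockout 2, beside the same shares of all genes. CDX4 stood on the other side without a call, at 0.88 and 2.13 TPM in WT H1 and 0 to 0.44 TPM in the PRC2-null samples (adjusted p = 0.0052 for EED-/- H1, and a difference of -1.16 with adjusted p = 0.00773 for the double knockout, both short of the fold). CDX1 was at 0.17 and 0.07 TPM in WT H1, 2.82 and 3.55 TPM in EED-/- H1, 21.9 and 20.9 TPM in SUZ12-/- H1 and 4.12 and 6.91 TPM in EZH2-/-/EZH1-/- H1. CDX1 was also called higher in SUZ12-/- H1 than in EED-/- H1 (2.43, SE 0.28, adjusted p = 0.000197). After DOX withdrawal CDX1 was at 1.22, 2.42, 10.9, 43.9, 4.29 and 5.30 TPM over the 6 days, and CDX2 at 0, 0.90, 0.76, 34.2, 15.3 and 6.51 TPM. PDX1, the pancreatic gene, was called in SUZ12-/- H1 alone among the PRC2-null lines (difference 1.70, adjusted p = 0.000502). CDX2 was called in each line, with differences from 2.14 to 3.11.

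Of the 9 TALE cofactors, which bind DNA together with HOX proteins, 4, 3 and 4 were called higher. MEIS1, MEIS2 and PKNOX2 were called in each line and MEIS3 in EED-/- H1 and EZH2-/-/EZH1-/- H1. MEIS1 was at 0.53 and 0.07 TPM in WT H1 and at 13.7 to 24.8 TPM in the PRC2-null samples. Among 9 trithorax and related genes, which counter Polycomb, KDM6B, an H3K27 demethylase, was called higher in each line, and PSIP1 and KAT7 were called lower. KDM6B was at 0.66 and 1.24 TPM in WT H1 and at 15.4 to 36.1 TPM in the PRC2-null samples.

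Apart from EVX1 and EVX2, the listed neighbours of the clusters mostly did not share the HOX pattern. Their distances from the clusters were not measured, so the list does not place a boundary. SKAP2 was called higher in each PRC2-null line among 5 neighbours of HOXA, and CALCOCO1 among 5 neighbours of HOXC. CALCOCO1 was at 10.1 and 8.73 TPM in WT H1 and at 40.7 to 137 TPM in the PRC2-null samples. Among 6 neighbours of HOXB the largest difference upward was 1.49 (CALCOCO2 in SUZ12-/- H1, adjusted p = 0.0112), and among 4 neighbours of HOXD it was 1.83 (KIAA1715 in SUZ12-/- H1, adjusted p = 0.0113), and neither was called. In EED-/- H1, ATP5G1 beside HOXB (-1.73, adjusted p = 0.000147) and HNRNPA1 beside HOXC were called lower.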

How the data were processed

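RNA was sequenced from TruSeq libraries, which do not mark strand. The authors aligned the reads with Bowtie to transcripts, estimated levels with RSEM and deposited TPM for 33382 genes in each of 19 samples; the sources also name GRCh38, hg38 and hg19. Tables were joined by Ensembl identifier. The design foresaw a count test only for counts, and the unit was TPM. limma 3.58.1 in R 4.3.3 (eBayes with trend and robust) was run on log2(TPM + 1) for 19100 genes with at least 1 TPM in at least 2 of 12 samples, and for the days on 17245 genes with at least 1 TPM in at least 2 of 7 samples. The script was tested on simulated data. Values in every sample are given for the 3 members of a cluster with the highest mean in the PRC2-null samples, members called between those lines, and paralog group 13; genes followed by day outside these were chosen after their values were seen. Members and gene lists were chosen with earlier results of these data known, and 1 further gene of the clusters is not reported here. Coordinates are from GENCODE release 44, figures from Python 3.11.15 with matplotlib 3.10.9. Alternatives were the pseudocount, the filter, scaling, thresholds, a replicate block, the samples fitted and leaving out samples.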

Additional observations from a re-analysis of the deposited data

Results flagged for a closer look

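Of the HOXB genes, 3 were called lower in SUZ12-/- H1 than in EED-/- H1, lines compared with the same WT H1 cells. This was a test of the difference itself by limma. They were 3 of the 38 HOX genes, against 2.58% of all genes tested. With a pseudocount of 0.1 they were not called. HOXB5 differed by -1.84 on the log2(TPM + 1) scale, HOXB8 by -1.82 and HOXB9 by -1.76, with SUZ12-/- H1 lower in 2 of 2 samples each. Of their neighbours, HOXB6 (-1.17) and HOXB7 were also below EED-/- H1 and were not called, and HOXB13 (1.17) was above it.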

How the results depend on the processing

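Against WT H1, 33 to 35 genes were called in EED-/- H1 over all alternatives, 28 to 35 in SUZ12-/- H1 and 23 to 34 in EZH2-/-/EZH1-/- H1 (23 with only the 4 samples of both lines), and no result reversed its sign. Between SUZ12-/- H1 and EED-/- H1 the 3 calls became 0 with a pseudocount of 0.1, 1 with only the 4 samples of both lines and 9 at an adjusted p of 0.05 with no fold minimum, and 0 to 4 when single samples were left out. Between SUZ12-/- H1 and EZH2-/-/EZH1-/- H1 the 0 calls became 9 at an adjusted p of 0.05 with no fold minimum, and 0 to 2 when single samples were left out (2 without EZH2-/-/EZH1-/- H1 replicate 1). Rises over the days numbered 5 to 29 when single days were left out, and 32 with the DOX sample as day 0. Onset by day 16 held for 15 genes at 1 TPM, 23 at 0.5 TPM and 7 at 2 TPM. The cause was not tested. With a replicate block, 34 HOX genes were called in EED-/- H1 and 3 between SUZ12-/- H1 and EED-/- H1, as without it. Replicate numbers follow the order of the samples: deviations of same-numbered samples correlated by -0.003 on average (-0.121 to 0.218, 1 of 15 pairs of lines over 0.1). No common pairing was seen, but whether samples of some lines shared a batch cannot be told from this. Scaling by median ratios moved the median of all genes in EED-/- H1 from 0.36 to 0.07 and the share of higher calls from 72.7 to 58.0%, while the HOX median moved from 3.51 to 3.25. With TPM alone, depth is unknown, and values near 0 have no floor.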
